A study of Homo sapiens with 2 samples.

Results

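In CWR22rv1 cells, a human prostate cancer line, 38 of 19607 measured genes went from at most 3 reads in the control library to 100 or more in Akt1/2 DKO. They were chosen by those read numbers alone, rounded to whole reads, among genes with a symbol, and FAT1, KRT80 and FLRT2, which also met the limits, were left out. The genes cover secreted signals and cell-surface receptors (INHBA, S100P, CCKBR, GRM3, AVPR1A), adhesion and guidance molecules (CADM1, IGSF9B, CDH12, NRP1), parts of the cytoskeleton and its regulators (KRT7, CYFIP2, SYNE1, SNTB1), factors that act on genes and RNA (ZNF648, HOXA11, POU3F3, PLAGL1, MAML2, CELF4) and enzymes of membrane lipids and glycans (ST8SIA1, MBOAT2, UST). Together they had 55 control reads and 8783 Akt1/2 DKO reads, which is 0.0819% of all reads in the latter.

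The Akt1/2 DKO cells had been edited at AKT1 and AKT2 with CRISPR/Cas9 and selected with puromycin, and monoclonal lines were then isolated; the control cells are labelled wild type. Each group is 1 library of RNA from cultured cells, and the clone behind the knockout library is not named in the sources used here. Whether the control cells are themselves a clone is not given either. An effect of the knockout therefore cannot be told apart from a difference between a clone and the control culture, and no value below has a replicate check. Akt1 and Akt2 are kinases that act below phosphoinositide 3-kinase and hold FOXO transcription factors out of the nucleus by phosphorylating them. A gene is called silent in a cell line when no or hardly any of its RNA is found, and long-term silence is commonly held in place by chromatin, by DNA methylation or by the absence of the activating factor.

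For each gene the deposited values are an estimated number of reads and an FPKM value, which divides reads by transcript length and library size. Library totals were 9970820 estimated reads in the control and 10718650 in the Akt1/2 DKO library. Fold changes are ratios of reads, Akt1/2 DKO to control, after TMM scaling with a library size ratio of 1.11, with an exact (Clopper-Pearson) 95% interval that covers counting error only. For genes at 0 reads in the control, the fold is a ratio against a floor of 3 reads per library, which leaves out counting error. The lower ends of their intervals were smaller, such as 54.8 against 67.9 for INHBA and 86.1 against 106 for PLXDC2. Genes with at least 10 reads in both libraries together, 13318 in all, were compared, and a gene is called higher or lower when it passed 1.5-fold, as 2120 (15.9%) and 1997 (15.0%) of them did, 30.9% in all. The 2 targeted genes were lower in the library labelled knockout, AKT1 with 2645 and 591 reads and AKT2 with 2362 and 667. In bulk RNA, more cells with a transcript and more transcript per cell cannot be told apart.

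Markers were looked up to check the label of the cells. The 10 luminal prostate markers summed to 23752 reads in the control and 38818 in the Akt1/2 DKO library, with KRT8, a luminal keratin, at 6408 and 12815. Of these 10, 3 were at least 1.5-fold higher and 5 lower, among them HOXB13, a prostate homeobox gene, with 2363 and 865 reads. Markers of endothelium were near 0: the 5 endothelial genes summed to 2 and 3 reads with CDH5 at 0 in both, and the 5 blood cell genes summed to 52 and 70, nearly all from CD68, with CD3E and LYZ at 0. The 8 basal and squamous markers summed to 79 and 50 reads with KRT5 and TP63 at 0 in both. The 8 fibroblast and stroma markers summed to 1041 and 244 reads, with VIM at 897 and 84, while COL1A1 had 55 and 106 reads and LUM 5 and 35. The 8 neuroendocrine and neuronal markers summed to 2825 and 4444 reads, with ENO2 at 1404 and 3198, CHGA at 340 and 2, and INSM1 at 0 in both. Where these sums moved, their part in the values below was not tested.

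**Figure D1:**
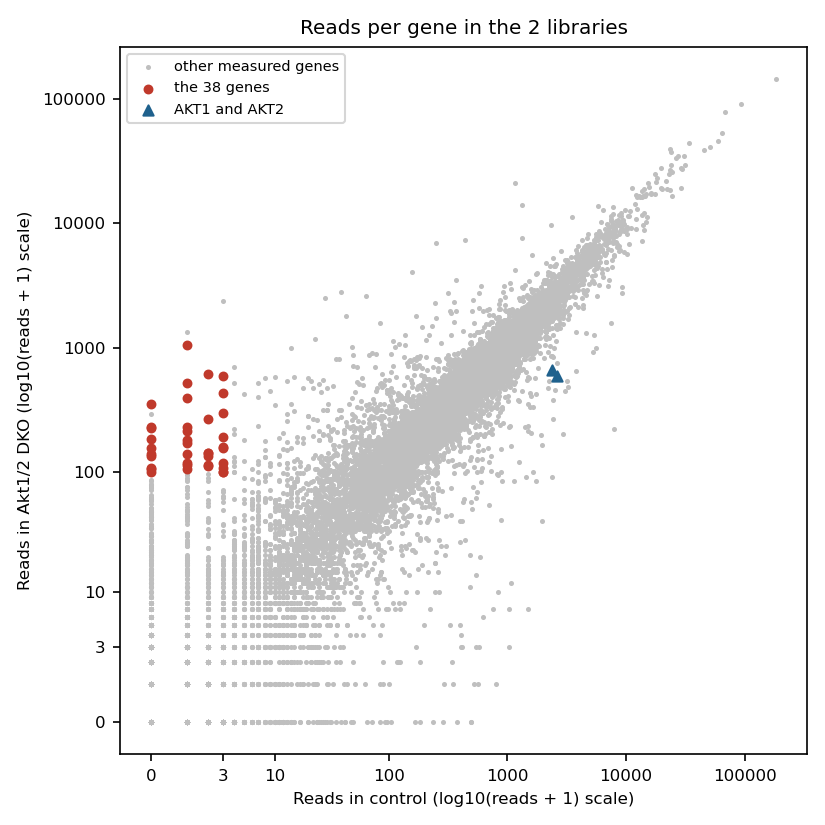
Each dot is a measured gene, with its estimated reads in the control library on the x axis and in the Akt1/2 DKO library on the y axis, both on a log10(reads + 1) scale. The 38 genes (red) fill the corner of at most 3 and at least 100 reads, and AKT1 and AKT2 (blue triangles) lie below the diagonal.

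Of the 9901 genes that had 100 or more Akt1/2 DKO reads, the 38 are 0.384%. In the other direction, 25 genes had at least 100 reads in the control and at most 3 in the Akt1/2 DKO library. In the control, 10 of the 38 genes had 0 reads, 11 had 1, 7 had 2 and 10 had 3. In the Akt1/2 DKO library they ran from 100 to 1050 reads with a median of 156, and 25 had fewer than 200. The median difference against the floor was 5.55 on the log2 scale, or 46.9-fold, beside a median log2 difference of 0.01 over the 13318 genes compared. Those reads chose the genes, so the difference describes them and is not a result about them.

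The limits fell within a continuous range of values. Just inside the limit on Akt1/2 DKO reads were UST and CDH12 with 100 reads, SYDE2 with 101, and AVPR1A and PLA2G4A with 106. Just outside were SORBS2 with 97, HOXA9 with 96, SLIT2 with 94, SGK1 with 90 and GRIA2 with 89, and 11 genes in all had 80 to 99 reads there with at most 3 in the control. On the control side, 10 genes at 3 reads were taken, such as CYFIP2 with 595 reads in the Akt1/2 DKO library. Another 10 genes at 4 control reads and at least 100 in the Akt1/2 DKO library were not, among them COL14A1 with 701, P2RY1 with 524 and EPB41L2 with 225.

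Set against length, most of the genes stayed at low levels even in the Akt1/2 DKO library. Their FPKM there ran from 1.43 (ENPP1) to 37.59 (S100P), with a median of 4.72, while the 9901 genes with at least 100 reads had a median of 17.47. Only S100P, KRT7 at 36.01, ZNF648 at 26.66 and TCTEX1D4 at 20.76 lay above that median, and CYFIP2 at 14.95 and SNTB1 at 11.54 also passed 10. In the control no member exceeded an FPKM of 0.48. Long genes were common among the 38: 21 of them (55.3%) spanned over 100 kb in the annotation, against 18.7% of the genes with at least 100 reads, and the median spans were 140 and 33.2 kb. The rule set a minimum of reads and not of reads per length. The genes compared with the 38 met the same minimum but were not matched to them in reads or FPKM, and 25 of the 38 had fewer than 200 reads. Spans run from gene start to gene end with introns, and why they differed was not tested.

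The genes did not sit together in the genome. They were spread over 15 chromosomes, with 5 each on chromosomes 6 and 11 and 4 each on chromosomes 1 and 7. KRT7 lay 40.5 kb from KRT80, another keratin gene and one of the 3 genes left out, and no other pair among the 41 genes was closer than 2.96 Mb.

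Promoter letters were read from RefSeq windows of GRCh38.p14 that run from 250 bases before to 50 bases after an annotated start. Windows were found for 32 of the 38 genes, 48 windows in all, among 35116 windows of all genes. KRT7, SNTB1, IGSF9B, CADM1, EML5 and NRP1 had no entry. Some windows were rich and some poor in CG, the dinucleotide at which DNA is methylated: they held 1 to 54 CG with a median of 13.5, against 14 over all windows, and 18 of 48 (37.5%) held at least 20, against 41.2%. The 250 bases before the start are printed for 4 genes to show that range, 2 with TATAAA, the core of the TATA box, and few CG, and 2 with many CG. Capitals mark TATAAA, or its reverse complement TTTATA, in the sequences of INHBA (chr7:41703091-41703340, minus strand) and PLAGL1 (chr6:143961413-143961662, minus strand, 1 of 5 windows of that gene). They mark every CG in those of ARHGAP32 (chr11:129279519-129279768, minus strand, 1 of 3 windows) and SYNE1 (chr6:152636891-152637140, minus strand, 1 of 4 windows). All run 5′ to 3′ on the strand of the gene and end at the base before its start.
INHBA: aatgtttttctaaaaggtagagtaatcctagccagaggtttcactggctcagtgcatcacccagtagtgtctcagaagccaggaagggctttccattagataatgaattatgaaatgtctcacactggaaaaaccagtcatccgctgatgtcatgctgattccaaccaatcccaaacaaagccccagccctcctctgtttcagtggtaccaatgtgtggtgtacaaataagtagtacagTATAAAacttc
PLAGL1: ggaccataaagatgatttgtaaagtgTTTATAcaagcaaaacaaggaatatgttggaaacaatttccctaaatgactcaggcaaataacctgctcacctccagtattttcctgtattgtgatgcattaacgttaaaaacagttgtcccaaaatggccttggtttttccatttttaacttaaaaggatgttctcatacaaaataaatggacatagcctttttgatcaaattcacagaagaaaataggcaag
ARHGAP32: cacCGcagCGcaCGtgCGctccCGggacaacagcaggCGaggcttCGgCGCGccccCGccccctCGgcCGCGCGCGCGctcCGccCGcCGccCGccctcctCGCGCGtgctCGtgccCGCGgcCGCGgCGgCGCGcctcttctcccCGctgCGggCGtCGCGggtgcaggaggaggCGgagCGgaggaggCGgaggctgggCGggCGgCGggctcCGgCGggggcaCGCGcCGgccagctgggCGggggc
SYNE1: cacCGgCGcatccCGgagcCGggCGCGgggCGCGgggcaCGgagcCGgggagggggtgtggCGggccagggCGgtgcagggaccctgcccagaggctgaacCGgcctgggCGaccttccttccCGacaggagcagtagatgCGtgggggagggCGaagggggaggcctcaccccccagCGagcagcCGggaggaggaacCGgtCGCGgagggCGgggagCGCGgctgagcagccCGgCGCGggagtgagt
In the INHBA window TATAAA ended 6 bases before the start, and in the bases printed for PLAGL1 it lay 219 to 224 bases before and on the other strand. The whole PLAGL1 window of 300 bases held 2 matches. The ARHGAP32 window of 300 bases held 54 CG and that of SYNE1 37, against 1 for INHBA and 2 for the PLAGL1 window printed. The other windows of ARHGAP32 held 2 and 1 CG, and those of SYNE1 12, 3 and 3. Those of PLAGL1 held 31, 3, 39 and 3, so the printed bases do not stand for all starts of these genes.

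Letters that FOXO factors are known to read, and those of the TATA box, were counted in the same windows, on both strands. GTAAACA, the forkhead core, was found in 1 of 48 windows (2.08%), that of POU3F3, against 3.42% of all windows. TATAAA was in 6 windows (12.5%), those of S100P, RGPD5, INHBA, SYNE1, PLAGL1 and CDH12, against 11.5%. These counts describe the letters of 300 bases and not binding.

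Signals and receptors made up 7 of the 38 genes, with 6 control reads and 1372 Akt1/2 DKO reads together. S100P (chromosome 4, 6693069 to 6697170, plus strand), a small calcium-binding protein of epithelial cancers that can also be secreted, had 1 and 519 reads, a ratio of 468 with a counting interval of 83.7 to 18525. INHBA (chromosome 7, 41667168 to 41705834, minus strand), the activin A subunit, a secreted signal of the TGF-beta family, had 0 and 226 reads. Against the floor it was 67.9-fold higher, with 54.8 as the lower end of its counting interval. Among the proteins that act with it, looked up after the values of INHBA had been seen, INHBB, the other activin subunit, had 217 and 563 reads (2.34-fold, interval 2.00 to 2.75). The receptor ACVR2A had 32 and 80 reads, while ACVR1B (705 and 606), ACVR2B (234 and 297) and the antagonist FSTL3 (499 and 504) differed by less than 1.5-fold. INHA, the inhibin subunit, had 4 and 3 reads, and the antagonist FST 2 and 9. Activin receptors thus had reads in both libraries, and INHBA had reads in the Akt1/2 DKO library alone.

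The other 5 of these genes handle signals across or just below the membrane. Of the 3 G protein-coupled receptors, GRM3, for glutamate, had 2 and 142 reads, CCKBR, for gastrin and cholecystokinin, had 2 and 134, and AVPR1A, for vasopressin, had 1 and 106. GUCY1B3, the beta subunit of the nitric oxide receptor guanylyl cyclase, had 0 and 139 reads and was 41.8-fold higher against the floor. Its alpha partner GUCY1A3, whose gene lies 26.6 kb away, had 0 and 25 reads, whereas the other alpha subunit gene, GUCY1A2, had 4371 and 2213. PLA2G4A, the cytosolic phospholipase that frees arachidonic acid, had 0 and 106 reads and was 31.9-fold higher against the floor. PTGS2, the inducible cyclooxygenase that uses this acid and the nearest expressed gene on one side of PLA2G4A at 149 kb, had 1 and 31 reads, PTGS1 had 1 and 11, and PTGES had 122 and 139. GRM3, CCKBR and AVPR1A were the 3 members in the neuroactive ligand-receptor pathway of the deposited annotation, which held 41 genes with at least 100 reads.

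Adhesion and guidance genes were 6, with 5 control and 1093 Akt1/2 DKO reads together. PLXDC2, a membrane protein with a plexin-like domain, had 0 and 354 reads and was 106-fold higher against the floor. Of the immunoglobulin superfamily, IGSF9B, found at inhibitory synapses, had 0 and 232 reads (69.8-fold against the floor). CADM1, a cell-cell adhesion molecule, had 0 and 185 (55.6-fold against the floor) and VSTM2A had 0 and 109 (32.8-fold against the floor). All 3 were at 0 reads in the control. CDH12, a cadherin of the brain, had 3 and 100 reads, while of the 10 other cadherin genes that could be compared 2 were at least 1.5-fold higher and 5 lower. CDH1, the epithelial cadherin, had 5349 and 3343 reads, CDH17 236 and 0, CDH7 485 and 11, and CDH2, the neural cadherin, 0 and 46.

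NRP1, the neuropilin that serves semaphorin 3 and VEGF as coreceptor, had 2 and 113 reads, a ratio of 51.0 (interval 13.8 to 426). NRP2, the other neuropilin, had 1 and 18 reads. Of the plexins that pair with neuropilins, 3 had fewer reads in the Akt1/2 DKO library: PLXNA2 had 2931 and 204 reads, a log2 difference of -3.99, PLXNA1 1879 and 1326, and PLXNA3 531 and 294. The other, PLXNA4, had 0 and 4 reads. Among the ligands SEMA3C had 793 and 504 reads, SEMA3F 125 and 225 and VEGFA 989 and 1229. These partners too were chosen with the value of NRP1 known.

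Cytoskeleton and trafficking was the most numerous group, with 10 genes, 23 control reads and 2823 Akt1/2 DKO reads. KRT7 (chromosome 12, 52232520 to 52252186, plus strand), a keratin of simple and glandular epithelia, had 2 and 615 reads, a ratio of 277 (76.5 to 2295). Among the 54 other measured KRT genes 7 could be compared, of which 4 were higher and 2 lower. The higher ones include KRT80, with 1 and 1350 reads, and KRT86. KRT80 met the limits on reads itself and was left out of the set, so its difference is fixed by those limits. The luminal keratins KRT8 and KRT18 had 6408 and 12815 and 2433 and 5306 reads, while KRT19, with 1966 and 166, and KRT15, with 13 and 0, were lower. Keratins were therefore higher and lower side by side, and KRT86, which overlaps KRT7 on the same strand, had 0 and 10 reads.

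CYFIP2 (chromosome 5, 157266079 to 157395595, plus strand), a subunit of the WAVE complex that drives branched actin, had 3 and 595 reads, a ratio of 179 (60.9 to 870). Its close relative CYFIP1, which fills the same place in the complex, had 2085 and 1723 reads. Of the other WAVE subunits WASF3 was 1.53-fold higher and BRK1 had a ratio of 0.54, while NCKAP1, WASF1, WASF2, ABI1 and ABI2 lay within 1.5-fold. SNTB1, a syntrophin of the dystrophin complex, had 1 and 397 reads, a ratio of 358 (63.9 to 14179), and its relative SNTB2 had 584 and 635. DTNA, the dystrobrevin that binds syntrophins, had 10 and 347 reads, a 31.3-fold difference (16.8 to 65.8). UTRN, the relative of dystrophin, had 108 and 183 reads, DTNB 136 and 107, and DMD, dystrophin itself, 0 and 7. SYNE1, a giant nesprin that ties the nucleus to the cytoskeleton, had 3 and 193 reads, with SUN1, SUN2 and LMNA, its nuclear partners, within 1.5-fold.

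The other 6 genes of this group had 101 to 301 reads in the Akt1/2 DKO library. The GTPase-activating proteins ARHGAP32 and SYDE2 had 3 and 301 and 3 and 101 reads. Of the 28 other ARHGAP genes that could be compared, 9 were at least 1.5-fold higher, such as ARHGAP44 with 12 and 154 reads, and 6 lower, such as ARHGAP20 with 576 and 3. The endophilin SH3GL2, which shapes membranes in endocytosis, had 1 and 181 reads, against 1445 and 1341 for SH3GL1. MYRIP, which links RAB27 vesicles to myosin, had 3 and 108 reads, with RAB27A (170 and 218) and RAB27B (121 and 112) within 1.5-fold and the myosin MYO7A lower, with 49 and 17. The microtubule-associated EML5 had 3 and 161 reads. TCTEX1D4, a dynein light chain, had 1 and 171 reads, but its gene of 0.763 kb overlaps PLK3 on the opposite strand (156 and 4081 reads), and as the strandedness of the libraries is not stated, reads of the overlapping genes cannot be told apart. The same holds for ST8SIA1 beside CMAS (924 and 2814 reads) and for EML5 beside ZC3H14 (827 in both).

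Factors of transcription and RNA were 7 genes, with 8 control and 2082 Akt1/2 DKO reads. ZNF648 (chromosome 1, 182054570 to 182061712, minus strand), a zinc finger gene, had the most reads of the 38, with 1 and 1050, a ratio of 947 (170 to 37443). Other ZNF genes did not share this: of 463 that could be compared, 27 (5.83%) were at least 1.5-fold higher and 84 (18.1%) lower, below and above the shares of all genes compared, 15.9% and 15.0%. POU3F3, a POU factor of brain and kidney development, had 1 and 139 reads, and POU3F2, a close relative, 1 and 76. CELF4 and KHDRBS2, RNA-binding proteins of splicing, had 2 and 267 and 3 and 119 reads, while CELF3 had 435 and 116. PLAGL1, an imprinted zinc finger gene that limits growth, had 0 and 156 reads and was 46.9-fold higher against the floor. MAML2, a coactivator of Notch, had 0 and 135 reads and was 40.6-fold higher against the floor. Its relatives MAML3 and MAML1 had 644 and 203 and 874 and 950. NOTCH3 had 35 and 821 reads (21.2-fold, 15.1 to 30.6), whereas NOTCH1, NOTCH2, RBPJ and the Notch target genes HES1 and HEY1 lay within 1.5-fold.

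HOXA11, a homeobox gene of the limb and urogenital tract, had 1 and 216 reads, a ratio of 195 (34.6 to 7730), and most of its family was higher as well. Of the 10 other HOXA genes of the cluster on chromosome 7, which the choice did not use, 8 were at least 1.5-fold higher, 1 was lower and 1 lay within, with a median log2 difference of 3.41. HOXA10 had 10 and 588 reads, HOXA13 30 and 357, HOXA5 20 and 232, HOXA7 4 and 121, HOXA6 7 and 116, HOXA9 2 and 96, HOXA3 26 and 87, and HOXA2 5 and 25. HOXA4, with 23 and 20 reads, lay within 1.5-fold. Antisense genes are annotated across this cluster, and reads from the strands cannot be told apart here.

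**Figure D2:**
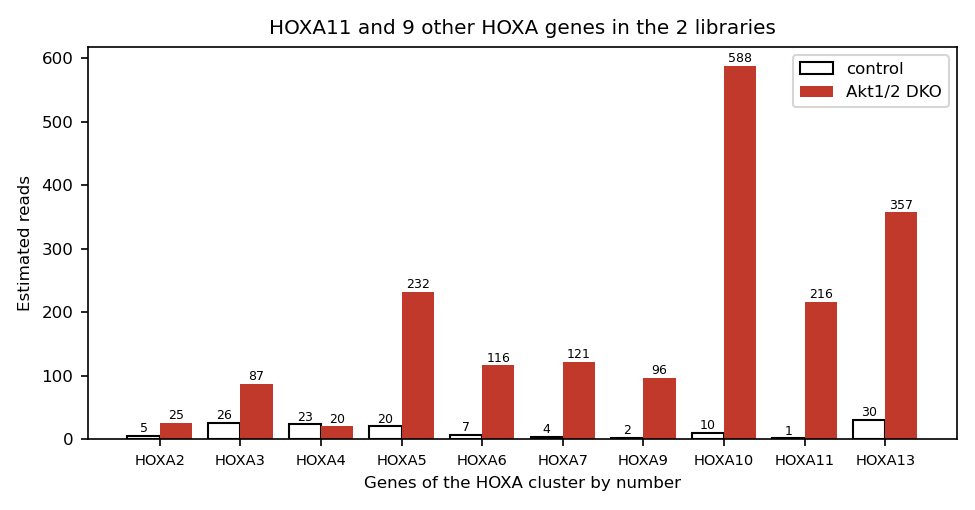
Estimated reads (y axis, linear from 0) of HOXA11 and 9 of the 10 other HOXA genes in the control (white bars) and Akt1/2 DKO (red bars) libraries, in order of their number, which is their order along the chromosome by start. Bars are single libraries without error bars, and from HOXA5 to HOXA13 every gene has 96 or more Akt1/2 DKO reads and at most 30 control reads.

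Enzymes of membrane lipids and glycans were 4 genes, with 6 control and 515 Akt1/2 DKO reads. MBOAT2, a lysophospholipid acyltransferase, had 3 and 156 reads, ST8SIA1, the sialyltransferase that makes ganglioside GD3, had 2 and 144, ENPP1, an ectoenzyme that makes pyrophosphate, had 1 and 115, and UST, which sulfates glycosaminoglycans, had 0 and 100. CMAS, which activates the sialic acid that ST8SIA1 transfers, is the gene overlapping it. The remaining 4 genes were PHYHIPL with 1 and 230 reads, WWC2, a KIBRA relative of the Hippo pathway, with 2 and 115, and RGPD5 and SLX1B, which are near-identical copies of other genes. Around WWC2, the Hippo genes LATS1, LATS2, YAP1, WWTR1 and NF2 all lay within 1.5-fold, and WWC3 had 210 and 110 reads.

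RGPD5 and SLX1B are uncertain members. RGPD5 had 2.75 and 435.02 estimated reads while RGPD6, whose longest coding transcript matched that of RGPD5 over 7165 bases with 0 mismatches, had 283.66 and 0.27. RGPD8, 99.8% identical, had 276.89 and 307.71. The sum of RGPD5, RGPD6 and RGPD8 was 563 and 743 reads, a log2 difference of 0.25 (interval 0.09 to 0.41), so the difference at RGPD5 was met by an opposite one at its copy. SLX1B had 0.95 and 117.74 estimated reads and SLX1A, identical to it over 1091 bases, 206.22 and 306.45, which gave 207 and 424 for both together, a log2 difference of 0.89 (0.64 to 1.13). Without these genes 36 members remain.

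Families were then compared as a whole. Relatives were taken by spelling, as the other measured genes with the same letters before the last number of the symbol, so a few are relatives in name only. For families of at most 40 genes, 173 relatives of the members were measured and 106 had at least 10 reads. Of these, 33 (31.1%) were at least 1.5-fold higher and 27 (25.5%) at least 1.5-fold lower, with a median log2 difference of -0.02. Both shares exceed those of all genes, to which the relatives were not matched in reads. The lower ones include RGPD6, the copy of RGPD5 whose reads went the opposite way. Without the HOXA genes 25 of 96 (26.0%) were higher and 26 (27.1%) lower. Apart from HOXA, relatives were higher about as often as lower: SYNE3 had 157 and 490 reads, EML1 60 and 256 and IGSF9 104 and 331, but GRM8 83 and 42, PLXDC1 27 and 15 and PLA2G7 888 and 41.

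The nearest expressed gene on each side of each member was examined next, since position was not used in the choice. Among 75 such neighbours, 27 (36.0%) were at least 1.5-fold higher and 8 (10.7%) lower, with a median log2 difference of 0.21, against 15.9% and 15.0% of all genes. Within 100 kb, 10 of 27 (37.0%) were higher and 1 lower. Among the 67 neighbours with at least 50 reads in both libraries together, 20 (29.9%) were higher and 8 (11.9%) lower, where 13.0% and 12.7% of the 11754 genes with as many reads were. Neighbours of 20 members included at least 1 higher gene, and those of 7, AVPR1A, GUCY1B3, HOXA11, MAML2, PLA2G4A, PLXDC2 and TCTEX1D4, were higher on both sides. These counts include neighbours that overlap a member, such as PLK3 at TCTEX1D4, whose reads cannot be told apart from those of the member. Without overlapping neighbours, 24 were higher and 8 lower.

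The neighbours differed in size and distance. GLUL, glutamine synthetase, 320 kb from ZNF648, had 1153 and 21244 reads, and IER5 on the other side had 447 and 231. BTBD19, 1.81 kb from TCTEX1D4, had 9 and 452 reads, and MTMR2, 51.3 kb from MAML2, 231 and 1510. HAS2, hyaluronan synthase, was the nearest expressed gene on one side of SNTB1 and had 1 and 72 reads, and MTBP, which overlaps SNTB1, had 213 and 206. SASH1 beside UST had 36 and 267 reads, NEBL beside PLXDC2 13 and 175, and BICC1 beside PHYHIPL 0 and 48. For 14 members both neighbours lay within 1.5-fold: CELF4, IGSF9B, INHBA, SYNE1, CADM1, EML5, PLAGL1, CCKBR, SLX1B, ENPP1, WWC2, NRP1, VSTM2A and MYRIP. INHBA thus stood between MPLKIP (351 and 449 reads) and GLI3 (119 and 138). Both neighbours of CDH12 were lower.

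**Figure D3:**
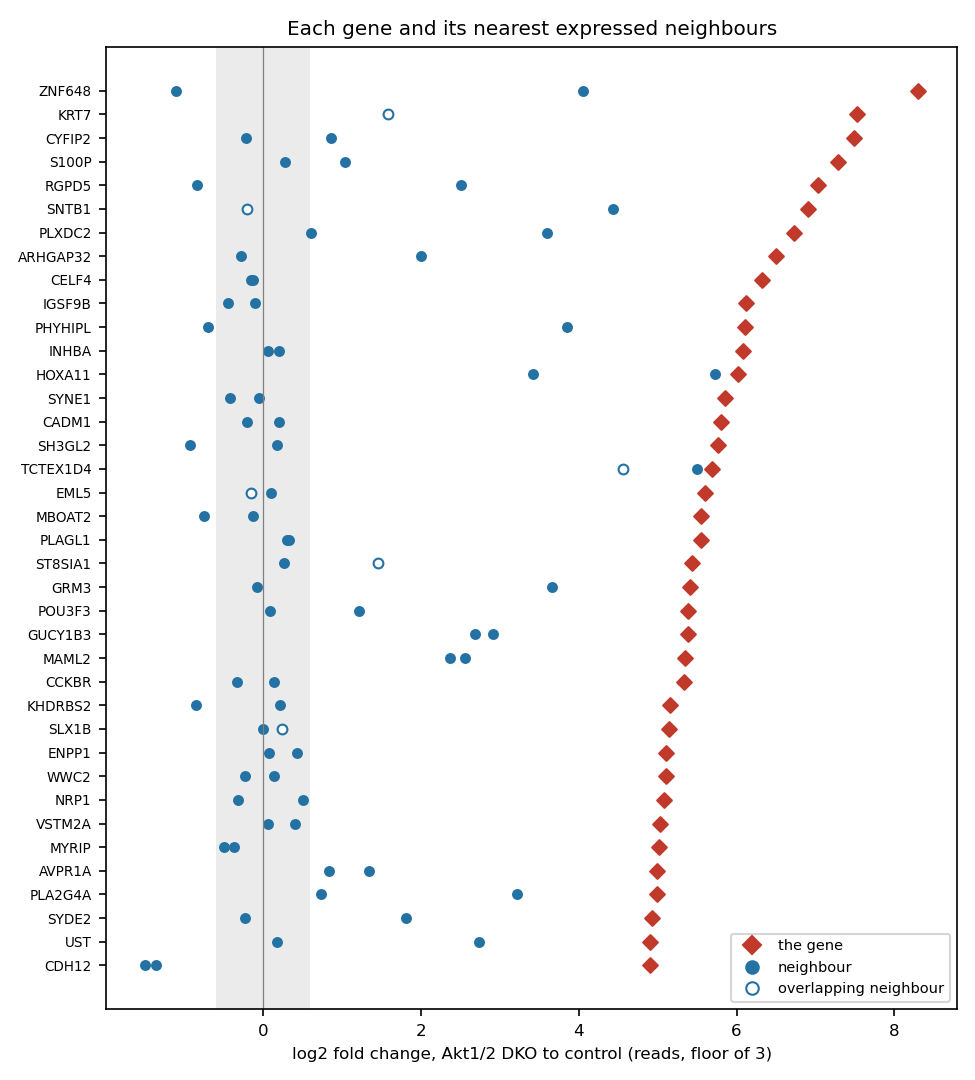
The log2 fold change from control to Akt1/2 DKO (x axis) of each of the 38 genes (red diamonds, control reads under 3 set to 3) and of its nearest expressed neighbours (blue dots, open where they overlap the gene), with the range within 1.5-fold shaded grey. Of the 75 neighbours, 27 lie to the right of the grey band and 8 to the left, and KRT80, the neighbour of KRT7 that was left out of the set, is not drawn.

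Ontology terms in the deposited annotation were counted over the 38 genes, all of which carried at least 1 term, and over the 9701 annotated genes that had 100 or more Akt1/2 DKO reads. The terms given here were chosen after their counts were seen. Cell differentiation was carried by 15 of the 38 genes (39.5%) and by 18.5% of the larger set, and plasma membrane by 15 (39.5%) and 20.3%. Growth was carried by 8 (21.1%) against 5.45%, cytoskeleton by 10 (26.3%) against 13.7%, and cell-cell signaling by 6 (15.8%) against 7.25%. Metabolic process was carried by 21 (55.3%) against 64.0%, and lipid metabolic process, a narrower term, by 5 (13.2%) against 7.56%.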

How the data were processed

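RNA of CWR22rv1 cells was sequenced in 2 libraries, 1 of Akt1/2 DKO and 1 of control (wild type) cells. The authors deposited estimated counts per gene without normalization, and FPKM, which they computed per transcript length and library size. The submitters' processing notes name fastp 0.20.0, TopHat, Cufflinks, edgeR and GRCh38.p10 without their roles; the gene counter, the annotation and the strandedness are not given in the sources used here. Other deposited tables hold the authors' fold changes and p-values, an ontology summary and a correlation of the libraries, and were not used.

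The estimated counts were rounded, which fractional values of 1851 control and 1811 Akt1/2 DKO genes required, and scaled by TMM (edgeR 4.0.16, R 4.3.3) over genes with at least 10 reads in both libraries together. Library totals were 9970820 and 10718650 estimated reads, and the floor of 3 reads corresponds to 0.301 and 0.280 CPM. Intervals are exact (Clopper-Pearson, 95%) and cover counting error only (Python 3.11.15, scipy 1.17.1). With 1 library per group no test was made, the libraries may differ in batch, and no p-value is given. Positions came from GENCODE release 29, which held 19571 of the 19607 identifiers, and promoter windows from RefSeq, with 2 members matched by an older symbol.

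The members and the lists were chosen with earlier results of these data known. All 38 members are named with their reads. Described at length were the 10 with most reads, those that share a family and those of adhesion, signals, transcription or transport. Relatives, neighbours and the genes at the limits were also named. The grouping by function and the partner proteins were chosen after the values were seen. Alternatives were other limits on reads, FPKM, total count, upper quartile and DESeq2 1.42.0 scaling, other floors, a 2-fold threshold and a minimum of 50 reads. The steps were tested on simulated data. Some results are not reported here.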

Additional observations from a re-analysis of the deposited data

How the results depend on the processing

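How many genes were taken depended on the limits: 10, 21 and 68 with at most 0, 1 and 10 control reads, 80 and 13 with at least 50 and 200 Akt1/2 DKO reads, and 82 with FPKM of at most 0.05 and at least 1 in place of reads. With at most 5 control reads 51 were taken, and 37 with unrounded counts. The median log2 difference of the 38 genes lay between 5.55 and 6.82 over all scalings and floors. At 2-fold, 27 relatives were higher and 17 lower, and 23 neighbours were higher and 3 lower. Of the fixed lists, 17 genes were higher and 22 lower at 2-fold, and 16 were higher and 26 lower with at least 50 reads. No share of all genes is given at 2-fold. By FPKM the AKT1 difference was -2.66 (log2). Apart from the changes to FPKM, where the cause was not tested, and the unrounded counts, the numbers of genes above changed with a stricter or looser limit. All alternatives kept the direction of AKT1 and AKT2, while the direction of the median is fixed by the choice of genes. Alternatives chosen after seeing the data were leaving out RGPD5 and SLX1B (36 genes), leaving out the HOXA genes (25 relatives higher and 26 lower) and leaving out overlapping neighbours (24 higher and 8 lower). No paired analysis was possible because each group has 1 library, and for the same reason no replicate could be left out. At this depth a gene at 0 reads may still be expressed below the floor of 3 reads.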

Other observations

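Gene lists that are often looked at when silent genes appear were counted beside the 38 genes. The lists were written from general knowledge with earlier results of these data known, and of all genes compared 15.9% were at least 1.5-fold higher and 15.0% lower. Of 26 FOXO-induced genes that could be compared, 7 were higher and 5 lower, with a median log2 difference of -0.07. PDK4, a brake on pyruvate oxidation, had 251 and 6999 reads in the control and Akt1/2 DKO libraries, and IRS2, an insulin receptor substrate, 509 and 2448. None of these genes is among the 38.

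Of 22 cancer-testis genes with enough reads, 1 was higher and 3 were lower, and of the 80 measured, 54 were at 0 reads in the control and 47 in the Akt1/2 DKO library. Among 48 clustered protocadherins 10 were higher and 22 lower, with a median log2 difference of -0.15. Of 10 imprinted genes 3 were higher and 3 lower: PLAGL1, a member of the 38, PEG3 (44 and 120 reads) and NNAT (5 and 12) were higher, and GRB10 (91 and 22), CDKN1C (35 and 11) and NDN (58 and 41) were lower. Of 9 interferon-stimulated genes 4 were higher and 1 was lower. Of 10 writers and erasers of DNA methylation and of Polycomb marks, 0 were higher and 3 lower, namely DNMT3B (257 and 129 reads), DNMT3A (572 and 379) and TET1 (43 and 15). With 1 library per group none of these counts has a replicate check, and whether they bear on the 38 genes was not tested.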
